A study of Mus musculus with 2 samples.

Results

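The lobule zones of the HFD liver section were 694 pericentral and 694 periportal spots, 1388 of the 3594 spots over tissue in this section and of 7286 spots over tissue in the whole series. They were chosen by a score of 8 zonation genes in the 3469 spots that held at least 5000 UMIs. A UMI, or unique molecular identifier, marks 1 captured RNA molecule. The score was the log2 ratio of the UMIs of Cyp2e1, Cyp1a2, Oat and Glul, plus 1, to those of Cyp2f2, Hal, Sds and Gls2, plus 1. The 20% of spots with the highest score were called pericentral and the 20% with the lowest score periportal, with ties taken in file order. The score was 4.09 at the pericentral limit and 0.60 at the periportal limit, and spots just inside and just outside each limit were tied.

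The section came from 1 male C57BL/6J mouse that was purchased at 5 weeks of age, acclimated for 1 week, fed a high-fat diet (60% fat) for 14 weeks as a model of fatty liver, and then given distilled water by mouth for 8 weeks. The NCD section, used here only for values set side by side, came from 1 mouse on a normal chow diet that was handled and given water in the same way. Both were 10 µm liver sections measured with 10x Visium, in which barcoded spots on a slide capture the RNA of the tissue above them. A spot covers a small region that can hold several cells of different types, so that the zones are regions and not purified hepatocytes. With 1 section per diet, diet, animal, section and slide cannot be told apart, spots of 1 section are not replicates, and no test was made. All 95% intervals are exact and cover counting error only.

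The liver lobule is organised along the flow of blood from the portal triad, where branches of the portal vein, hepatic artery and bile duct enter, to the central vein. Hepatocytes along this axis share out their work: periportal hepatocytes are known for urea synthesis, amino acid breakdown, gluconeogenesis and the secretion of plasma proteins, and pericentral hepatocytes for glutamine synthesis, xenobiotic metabolism and bile acid synthesis. Wnt ligands from the endothelium of the central vein maintain the pericentral programme, and its sharpest targets lie in the hepatocytes that touch the vein.

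The 3469 scored spots were also cut into 5 equal bins along the score, of which bin 1 is the periportal zone and bin 5 the pericentral zone. Median depth was 27592, 18419, 14585.5, 16190 and 18948.5 UMIs per spot in bins 1 to 5. Periportal spots were thus deeper than those of the other bins. Counts were pooled over the spots of a zone and given as counts per 1e+06 UMIs (CPM), so that a higher share of UMIs is not the same as more molecules per spot. The pooled totals were 19741558 UMIs in periportal and 13734662 UMIs in pericentral spots, and the log2 ratio of UMIs per spot is lower than that of CPM by a constant 0.52 (shift -0.52). In a spot of fixed area, fewer cells of a type and less RNA per cell cannot be told apart.

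Labels of the samples also named an immune cell type and hematopoietic stem cells, but the counts were mainly those of liver tissue, with immune cells in it. Alb, the albumin gene of hepatocytes, had 57872 CPM over the section and was found in 100% of spots, and Apoa1 was found in nearly all of them. Ptprc, the common leukocyte antigen, had 10.7 CPM and was found in 17.7% of spots. Clec4f, a marker of resident liver macrophages, was found in 45.0% of periportal and 57.3% of pericentral spots. The stem cell genes Cd34 and Kit had 3.59 and 3.02 CPM, and Kit was also counted here among genes of central vein endothelium. The 1398 spots off tissue on the same slide held 2.93% of this slide's UMIs (median per spot 1175.5), and their RNA included both zone markers, with 3771 CPM of Cyp2e1 and 393 CPM of Cyp2f2.

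The score genes only describe how the zones were chosen. Cyp2e1, a cytochrome P450 that oxidises ethanol and other small molecules, went from 1219 CPM in periportal spots to 9048 CPM in pericentral spots. Its level in single periportal spots ran from 137 to 3401 CPM with a median of 1223, and in pericentral spots from 1395 to 16483 CPM with a median of 8939, so that the extremes of the zones overlapped. Glul, glutamine synthetase, had 104, 184, 255, 406 and 1279 CPM in bins 1 to 5. The jump from bin 4 to bin 5 was 3.15-fold for Glul and 2.62-fold for Oat, ornithine aminotransferase, against 1.36-fold for Cyp2e1. Glul varied widely inside the pericentral zone, with 173 CPM at percentile 10, a median of 803 CPM and 2998 CPM at percentile 90. On the periportal side, Cyp2f2 had 1054, 792, 523, 347 and 192 CPM, Hal, which opens histidine breakdown, had 248, 166, 108, 73.9 and 45.2 CPM, Sds, serine dehydratase, had 381, 217, 131, 85.8 and 49.7 CPM, and Gls2, liver glutaminase, had 347, 268, 195, 135 and 79.7 CPM in bins 1 to 5. All 4 periportal genes declined at each step.

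Promoter sequences of 6 genes with steep zonation are shown as examples with and without the words searched, and were picked after the words were seen. They are the 200 bases before the transcription start in RefSeq, build GRCm38.p6, written 5′ to 3′ on the strand of the gene. Capitals mark the words searched on both strands, which were CTTTGAA or CTTTGAT for the TCF/LEF factors of Wnt signalling, CAAAGTC for HNF4 and TATAAA for the TATA box.
Cyp2e1, pericentral, chr7:140763619-140763818 (+ strand): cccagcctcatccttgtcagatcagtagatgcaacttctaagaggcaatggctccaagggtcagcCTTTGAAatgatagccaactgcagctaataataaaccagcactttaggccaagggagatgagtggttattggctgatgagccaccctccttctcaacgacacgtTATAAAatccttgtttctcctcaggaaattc
Cyp2a5, pericentral, chr7:26835139-26835338 (+ strand): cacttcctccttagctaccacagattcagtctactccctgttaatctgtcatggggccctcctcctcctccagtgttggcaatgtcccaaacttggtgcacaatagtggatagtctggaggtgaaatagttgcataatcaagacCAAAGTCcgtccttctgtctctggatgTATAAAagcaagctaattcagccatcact
Cyp2c37, pericentral, chr19:39992224-39992423 (+ strand): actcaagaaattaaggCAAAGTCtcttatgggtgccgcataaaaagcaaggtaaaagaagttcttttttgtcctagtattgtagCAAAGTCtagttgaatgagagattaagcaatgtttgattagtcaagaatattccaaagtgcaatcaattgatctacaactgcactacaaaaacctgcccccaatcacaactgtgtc
Glul, pericentral, chr1:153899729-153899928 (+ strand): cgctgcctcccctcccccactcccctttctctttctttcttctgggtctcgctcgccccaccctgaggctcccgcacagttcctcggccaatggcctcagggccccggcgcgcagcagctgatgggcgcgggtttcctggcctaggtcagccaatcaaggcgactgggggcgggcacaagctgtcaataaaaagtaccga
Hal, periportal, chr10:93488568-93488767 (+ strand): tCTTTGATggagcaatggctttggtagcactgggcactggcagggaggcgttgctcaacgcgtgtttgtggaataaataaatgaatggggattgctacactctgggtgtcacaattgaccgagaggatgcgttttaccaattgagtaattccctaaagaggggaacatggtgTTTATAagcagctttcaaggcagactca
Serpina1e, periportal, chr12:103956898-103957097 (- strand): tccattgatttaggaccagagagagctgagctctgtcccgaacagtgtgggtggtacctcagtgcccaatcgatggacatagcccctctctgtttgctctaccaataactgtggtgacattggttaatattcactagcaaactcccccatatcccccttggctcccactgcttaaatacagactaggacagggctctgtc
In Cyp2e1 a TCF/LEF word began 135 bases and a TATA word 31 bases upstream of the start. In Cyp2a5 an HNF4 word began 56 bases and a TATA word 29 bases upstream, and Cyp2c37 held the HNF4 word at 184 and at 116 bases. The periportal gene Hal held a TCF/LEF word at 199 bases and the reversed TATA word at 28 bases. Neither Glul nor Serpina1e held any of these words in the window, which says only that these letters are not there. Among all the promoters read in this window, 5 of 10 pericentral and 1 of 8 periportal genes held any of the words. The genes without one included Oat, Slc1a2, Cyp2c50, Axin2, Cyp2f2, Ass1 and Pck1. Cyp1a2 and Cyp2c38 held only a TATA word, and a TCF/LEF word was found only in Cyp2e1 and in the periportal Hal. The share of all promoters with any word was not counted for this window, so these few genes show no difference between the zones. Over the whole window of the RefSeq table, from 250 bases before to 50 after the start, a TCF/LEF word was present in 8.65% of 32851 promoters. It was present in 7.10% of the 6538 genes tested between the zones that had an entry, in 11.4% of 414 genes past 1.5-fold in the pericentral zone and in 8.04% of 199 genes past 1.5-fold in the periportal zone. The corresponding shares of genes were 4.88%, 7.49% and 8.04% for the HNF4 word and 9.25%, 13.8% and 16.1% for the TATA word. The TCF/LEF words share the letters CTTTG with the reversed HNF4 word. Where a gene has several starts, a match in any of them was counted. In this longer window Slc1a2 and Cyp1a2 held a TCF/LEF word, which they lacked in the 200 bases read.

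Of 8131 genes outside the score with at least 200 UMIs over both zones, 512 (6.3%) were more than 1.5-fold higher in pericentral spots and 265 (3.26%) more than 1.5-fold higher in periportal spots. Past 2-fold, they numbered 157 (1.93%) and 110 (1.35%). These counts are by size, with no test, and they depend on the scale: by UMIs per spot, 139 genes were past 1.5-fold in pericentral spots and 1689 in periportal spots. The median log2 ratio of all 8131 genes was 0.13 by CPM and -0.40 by UMIs per spot. Along the 5 bins, 1143 genes increased at each step and 375 decreased at each step. Of the 512 pericentral genes 361 increased at each step, and of the 265 periportal genes 169 decreased at each step.

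**Figure D1:**
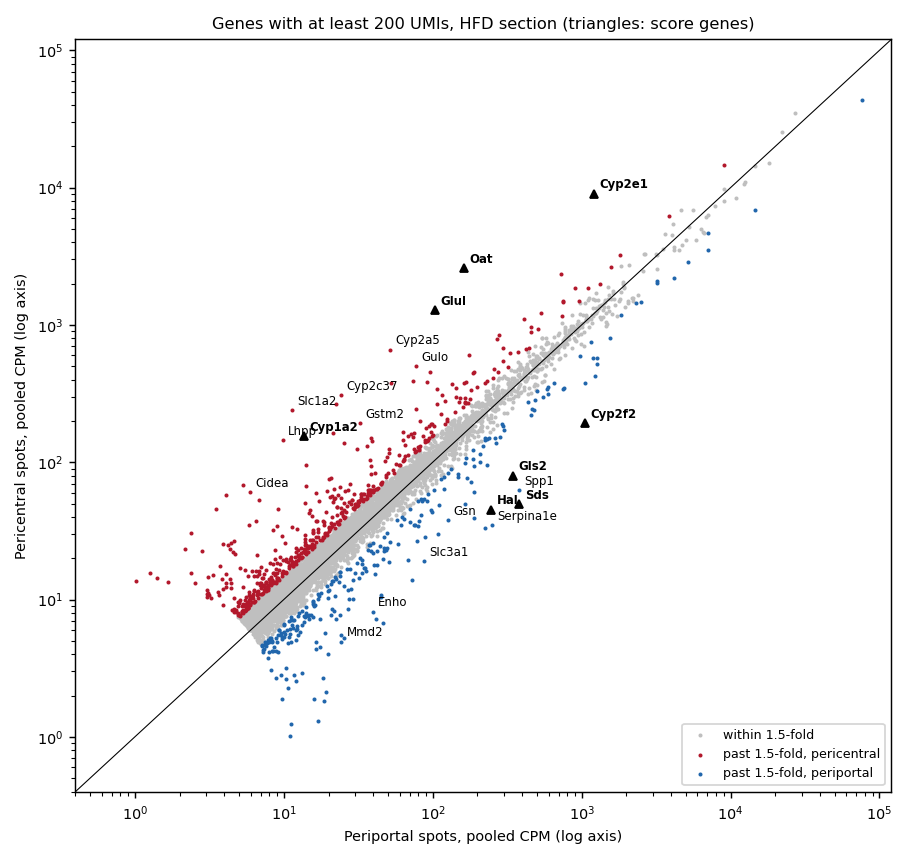
Pooled CPM of each gene with at least 200 UMIs in periportal spots (x, log axis) and pericentral spots (y, log axis) of the HFD section; red and blue points are the 512 and 265 genes past 1.5-fold and triangles are the 8 score genes. Slc1a2, Lhpp, Cyp2a5 and Gulo lie far above the line of equal CPM, and Serpina1e, Spp1 and Slc3a1 below it.

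Wnt targets and genes of the pericentral rim had the highest ratio of the 42 lists examined. The lists were chosen with earlier results of these data known, so that this rank is only a description. Of the list of Wnt targets and rim genes, Slc1a2, Lhpp, Rhbg and Slc13a3 were also among the 15 genes named for the highest ratios. All 8 members of this list with enough UMIs were past 1.5-fold in pericentral spots, and the 13 genes of the list together went from 52.5 CPM in periportal spots to 589.6 CPM in pericentral spots, a log2 ratio of 3.49 (95% interval 3.40 to 3.58). The median over the 8 members was 3.35, against 0.13 over all genes. Slc1a2, a glutamate transporter, had 11.3, 25.0, 42.8, 70.7 and 239 CPM in bins 1 to 5, a log2 ratio of 4.40 (95% interval 4.20 to 4.60). On GRCm38 with GENCODE M21, the protein-coding Slc1a2 (ENSMUSG00000005089) lies at chr2:102658659-102790784 on the + strand, Lhpp (ENSMUSG00000030946) at chr7:132610638-132706420 on the + strand and Rhbg (ENSMUSG00000104445) at chr3:88242874-88254709 on the - strand. Of all UMIs of Slc1a2 in the scored spots, 62.5% lay in the pericentral zone and 4.27% in the periportal zone. Rhbg, an ammonium transporter, had 3.50, 5.28, 10.4, 11.9 and 45.8 CPM, and Lhpp, a phosphatase, had 9.88, 22.1, 35.6, 59.9 and 145 CPM. Slc13a3, a dicarboxylate transporter, went from 5.32 CPM in periportal spots to 68.1 CPM in pericentral spots, and Tbx3, a transcription factor downstream of Wnt, had 1.67 and 13.5 CPM. The feedback inhibitors Notum, Nkd1 and Rnf43 had log2 ratios of 1.92, 1.96 and 1.67.

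The last step, from bin 4 to bin 5, was 3.86-fold for Rhbg, 3.38-fold for Slc1a2 and 2.42-fold for Lhpp. In Cyp2c38 and Gm13775, whose ratio between the zones was also above 2 on the log2 scale, this step was 1.34-fold and 1.37-fold. These were the smallest last steps among the genes named for the highest pericentral ratios. Cyp2a5, Cyp2b13 and Cyp2c37, outside the list of Wnt targets and rim genes, had last steps of 2.38-fold, 2.36-fold and 2.04-fold. The steps of Rhbg and Slc1a2 were larger than these, but that of Lhpp was close to that of Cyp2a5. A steep last step was thus not particular to the list, and all of these genes increased at each step of the axis. Slc1a2 was also uneven among pericentral spots, where its median was 155 CPM, its percentile 90 lay at 603 CPM and 135 of 694 spots had 0 UMIs. Among members with few UMIs, the R-spondin receptor Lgr5 was found in 68 pericentral spots (9.80%, exact interval 7.69 to 12.3%) and 8 periportal spots (1.15%, 0.499 to 2.26%). After each spot was drawn down to 5000 UMIs, it was found in 3.89% and 0.144% of spots. Axin2 was found in 57 pericentral and 11 periportal spots, or 2.02% and 0.144% after drawing down.

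**Figure D2:**
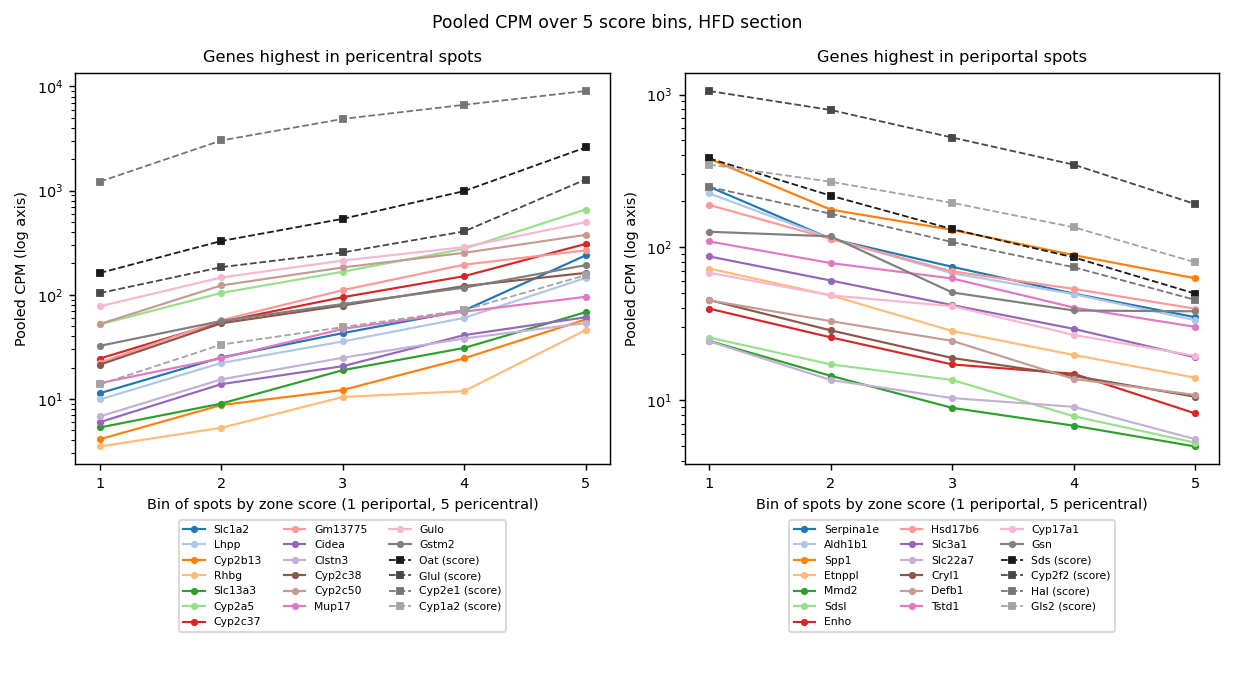
Pooled CPM (log axis) in 5 equal bins of spots along the zone score, from 1 (periportal) to 5 (pericentral), for the 15 genes highest in each zone (solid) and the score genes (dashed). Rhbg, Slc1a2 and Glul turn up steeply at bin 5, whereas Cyp2c38 and Gm13775 climb most between bins 1 and 2, and Serpina1e, Aldh1b1 and Spp1 drop most between bins 1 and 2.

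Cytochromes P450 of the CYP2 and CYP3 families, which oxidise drugs and steroids, were largely pericentral but not uniformly, with log2 ratios of the summed list of 0.97 by CPM and 0.44 by UMIs per spot. Of 23 tested members, 12 were past 1.5-fold in pericentral spots, 2 in periportal spots and 9 in neither, with a median log2 ratio of 1.26. Cyp2a5, which oxidises coumarin, had 52.0, 104, 167, 277 and 659 CPM, a log2 ratio of 3.66 (95% interval 3.57 to 3.76). Cyp2c37, Cyp2c38 and Cyp2c50 lie near each other on chromosome 19, from 39389556 (Cyp2c38) to 40113950 (Cyp2c50) on GRCm38, and had log2 ratios of 3.66, 2.93 and 2.84. Cyp2c37 went from 24.4 CPM in periportal spots to 308 CPM in pericentral spots and Cyp2c29 from 96.6 CPM in periportal spots to 454 CPM in pericentral spots. Cyp3a11, the main drug-inducible CYP3A of mouse liver, had 726, 1182, 1623, 1938 and 2336 CPM in bins 1 to 5. Cyp2b13 had 4.10 and 58.0 CPM in periportal and pericentral spots and was found in 10.8% and 54.9% of them, or in 2.45% and 23.2% after drawing down to 5000 UMIs. In the zones of the NCD section, which held 4509836 UMIs in periportal and 4890009 in pericentral spots, Cyp2b13 had 0 UMIs. Spots were shallower there, and the reason for the 0 was not tested. Cyp2b9, a relative of Cyp2b13, had a smaller log2 ratio of 1.31 (95% interval 1.23 to 1.39) in the HFD section. The members past 1.5-fold in periportal spots were Cyp2a4, with a log2 ratio of -1.31, and Cyp2c70, a bile acid hydroxylase, with -0.84. Reads of near-identical members of these families can be hard to assign, so single members are uncertain where a close copy exists, as for Cyp2a4 and Cyp2a5.

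Of the CYP4 fatty acid hydroxylases, 4 of 9 tested were past 1.5-fold in pericentral spots and 1, Cyp4a31, in periportal spots. Cyp4a14 went from 457 CPM in periportal spots to 886 CPM in pericentral spots and Cyp4a10 from 329 CPM in periportal spots to 626 CPM in pericentral spots, while Cyp4f15 was level at 94.3 and 94.3 CPM. Among receptors and redox partners of P450s, 4 of 8 were past 1.5-fold in pericentral spots and 0 in periportal spots. These were Ahr, the dioxin receptor (15.04 and 44.8 CPM), Nr1i3, the receptor CAR (71.4 and 162 CPM), Por, the electron donor of P450s (162 and 377 CPM), and Cyb5a (1579.7 and 2638 CPM). Nr1i2, the receptor PXR, had a log2 ratio of 0.28.

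Phase II enzymes conjugate the products of P450s. Of 30 tested, 9 were past 1.5-fold in pericentral spots and 2 in periportal spots, and the sum of the list had a log2 ratio of 0.60 by CPM and 0.08 by UMIs per spot. The pericentral ones included 5 glutathione transferases of the mu class, of which Gstm2 went from 32.3 CPM in periportal spots to 193 CPM in pericentral spots, Gstm3 from 30.9 CPM in periportal spots to 124 CPM in pericentral spots and Gstm1 from 910.0 CPM in periportal spots to 1866 CPM in pericentral spots. The alpha class was divided: Gsta3 had a log2 ratio of 0.76, and Gsta1 and Gsta2 had -0.81 and -0.86. Sult2a8, a sulfotransferase, went from 77.8 CPM in periportal spots to 245 CPM in pericentral spots. The UDP-glucuronosyltransferases differed less, and among the tested members only Ugt2b34 passed 1.5-fold, with a log2 ratio of 0.69.

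Bile acid synthesis had 6 of 14 members past 1.5-fold in pericentral spots and 1 in periportal spots, with a log2 ratio of the summed list of 0.37 by CPM that turned to -0.15 by UMIs per spot. Cyp7a1, the rate-limiting enzyme of the classic pathway, had 17.2, 29.3, 36.9, 43.0 and 52.2 CPM in bins 1 to 5, a log2 ratio of 1.60 (95% interval 1.41 to 1.79). Cyp27a1 and Cyp7b1, the first enzymes of the alternative pathway, had log2 ratios of 1.41 and 1.43, and Cyp8b1, which sets the share of cholic acid, had 0.88. The conjugating enzymes Baat and Slc27a5 were near 0, at 0.01 and -0.02, and Cyp39a1 was higher in periportal spots at -1.20. Of 10 tested transporters, the uptake carriers Slco1b2 (531 and 1231 CPM) and Slco1a4 (36.6 and 68.1 CPM) and the phospholipid flippase Abcb4 (165 and 277 CPM) were past 1.5-fold in pericentral spots, and 0 transporters passed it in periportal spots. The bile salt export pump Abcb11 had a log2 ratio of -0.15.

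The urea cycle was periportal. Of its 8 members, 5 were past 1.5-fold in periportal spots and 0 in pericentral spots, and together they had 5377, 4922, 4351, 3739 and 2776 CPM in bins 1 to 5, a log2 ratio of -0.95 (95% interval -0.97 to -0.94). These were the 5 cycle enzymes: Cps1, which brings in ammonia, with 1269, 1162, 989, 792 and 521 CPM, Arg1 with a log2 ratio of -1.14 (95% interval -1.18 to -1.11), Ass1 with -0.94 (95% interval -0.97 to -0.91), Asl with -0.92 and Otc with -0.76. Ass1 in single spots ran from 480.2 to 3029.9 CPM in the periportal zone and from 49.0 to 2046 CPM in the pericentral zone, so that the zones overlapped. Cps1 was found in all 694 periportal spots and had 0 UMIs in 5 pericentral spots. The mitochondrial carriers Slc25a15 and Slc25a13 and the activator enzyme Nags had log2 ratios of -0.31, 0.24 and 0.20.

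Amino acid breakdown was split by pathway. Over 36 tested members, 9 were past 1.5-fold in periportal spots and 1 in pericentral spots, with a median log2 ratio of -0.07. Histidine breakdown after Hal was periportal at each enzyme measured, with log2 ratios of -1.02 for Uroc1, -1.32 for Amdhd1 and -0.95 for Ftcd. Sdsl, a relative of serine dehydratase, had 25.6 and 5.24 CPM, and Gldc, of glycine cleavage, 189 and 60.7 CPM. Etnppl, which breaks down phosphoethanolamine, had 72.5 and 13.98 CPM, and Cth, which makes cysteine, 482 and 242 CPM. Tyrosine and tryptophan enzymes lay close to equality: Tat, Hgd, Fah and Tdo2 had log2 ratios of -0.20, 0.29, 0.13 and -0.26. The member past 1.5-fold in pericentral spots was Prodh, proline dehydrogenase, with 73.8 and 152 CPM.

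Enzymes of glucose metabolism differed little between the zones by CPM, and by UMIs per spot the summed lists of gluconeogenesis and glycolysis had log2 ratios of -0.78 and -0.34. Of 8 gluconeogenic genes, 0 passed 1.5-fold in periportal spots, and Pck1, the rate-setting enzyme, came closest with 2212, 1999, 1831, 1751 and 1492 CPM in bins 1 to 5 and a log2 ratio of -0.57 (95% interval -0.59 to -0.54). Gpd1, a glycerol phosphate dehydrogenase on this list, was past 1.5-fold in pericentral spots with 223 and 376 CPM. Of 14 glycolytic and glycogen genes, only the liver pyruvate kinase Pklr passed 1.5-fold in pericentral spots, with 34.2 and 52.3 CPM, and 0 passed in periportal spots. The shares over all genes tested were 6.3% in pericentral and 3.26% in periportal spots.

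Lipid genes leaned to the pericentral side by CPM, with some members opposed, but by UMIs per spot the summed lists of lipogenesis and of fatty acid uptake had log2 ratios of 0.04 and 0.10, and those of lipid droplets and of fatty acid oxidation turned to -0.29 and -0.07. Of 15 lipogenic genes, 7 were past 1.5-fold in pericentral spots and 1 in periportal spots, with a median log2 ratio of 0.57. Scd1, the stearoyl-CoA desaturase, had 4661, 5460.2, 6249, 6865 and 6920.4 CPM in bins 1 to 5, a log2 ratio of 0.57 (95% interval 0.56 to 0.58) that is just under 1.5-fold. Me1, which supplies NADPH, went from 94.3 CPM in periportal spots to 184 CPM in pericentral spots, the elongase Elovl6 from 25.3 CPM in periportal spots to 44.6 CPM in pericentral spots, and Acacb, an acetyl-CoA carboxylase of mitochondria, from 8.51 CPM in periportal spots to 18.1 CPM in pericentral spots. Fasn, fatty acid synthase, had a log2 ratio of 0.46 and Srebf1 one of -0.07. Acly, which makes cytosolic acetyl-CoA, was periportal with 109.8, 78.0, 65.6, 50.9 and 48.9 CPM.

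Genes of lipid droplets had 7 of 16 tested members past 1.5-fold in pericentral spots and 1 in periportal spots. Cidea, a droplet fusion protein of brown fat and fatty liver, had 5.98, 13.9, 20.6, 41.0 and 60.8 CPM in bins 1 to 5, a log2 ratio of 3.35 (95% interval 3.07 to 3.64). It was found in 445 of 694 pericentral spots (64.1%) and 105 periportal spots (15.1%), or in 26.9% and 2.74% after drawing down to 5000 UMIs. Its relative Cidec went from 36.2 CPM in periportal spots to 131 CPM in pericentral spots, Fitm1, which takes part in droplet formation, from 91.0 CPM in periportal spots to 382 CPM in pericentral spots, and G0s2, an inhibitor of the lipase Pnpla2, from 189.9 CPM in periportal spots to 458 CPM in pericentral spots. Plin2, the general droplet coat protein of hepatocytes, had 574 and 804 CPM, a log2 ratio of 0.49 that did not pass 1.5-fold. Hsd17b13, another droplet protein, ran the other way with 1232, 1004, 781, 607 and 423 CPM and a log2 ratio of -1.54. It held most of the list's opposing UMIs, and the summed list had a log2 ratio of 0.23 where the median member had 0.52.

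For fatty acid uptake and esterification, 6 of 24 tested members were past 1.5-fold in pericentral spots and 0 in periportal spots. Vldlr, the receptor for very low density lipoprotein, was found in 153 pericentral spots (22.0%) and 19 periportal spots (2.74%), or in 6.48% and 0.865% after drawing down. Mogat1, a monoacylglycerol acyltransferase, went from 6.64 CPM in periportal spots to 21.3 CPM in pericentral spots, and Fabp1, the liver fatty acid binding protein, from 8989 CPM in periportal spots to 14545 CPM in pericentral spots. Cd36, a fatty acid carrier, had a log2 ratio of 0.50. Of 26 genes of fatty acid oxidation and ketogenesis, 5 were past 1.5-fold in pericentral spots and 0 in periportal spots, and 25 of the 26 had higher CPM there, as did 5800 of all 8131 genes tested. Those past 1.5-fold included Vnn1, Acaa1b, Eci2 and Bdh1, of which Acaa1b, a peroxisomal thiolase, went from 1803 CPM in periportal spots to 3231 CPM in pericentral spots. Cpt1a, the control point of mitochondrial oxidation, had a log2 ratio of 0.48, and Fgf21, a fasting hormone, had -0.32.

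Most genes of cholesterol synthesis passed 1.5-fold in neither zone. Of 24 members, 3 were past it in periportal spots, 1, Nsdhl, in pericentral spots and 20 in neither. Over all genes tested, the shares were 3.26% in periportal and 6.3% in pericentral spots. The periportal ones included Sqle, squalene epoxidase, with 27.5 and 10.0 CPM, while Hmgcs1 had a log2 ratio of 0.45. The sum of the list had 1507, 1421, 1424, 1393 and 1552 CPM in bins 1 to 5. Of 19 genes for apolipoproteins and lipoprotein secretion, Apoc2 alone passed 1.5-fold, with 2333 and 1434 CPM, and Apob and Apoe had log2 ratios of -0.05 and 0.20.

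**Figure D3:**
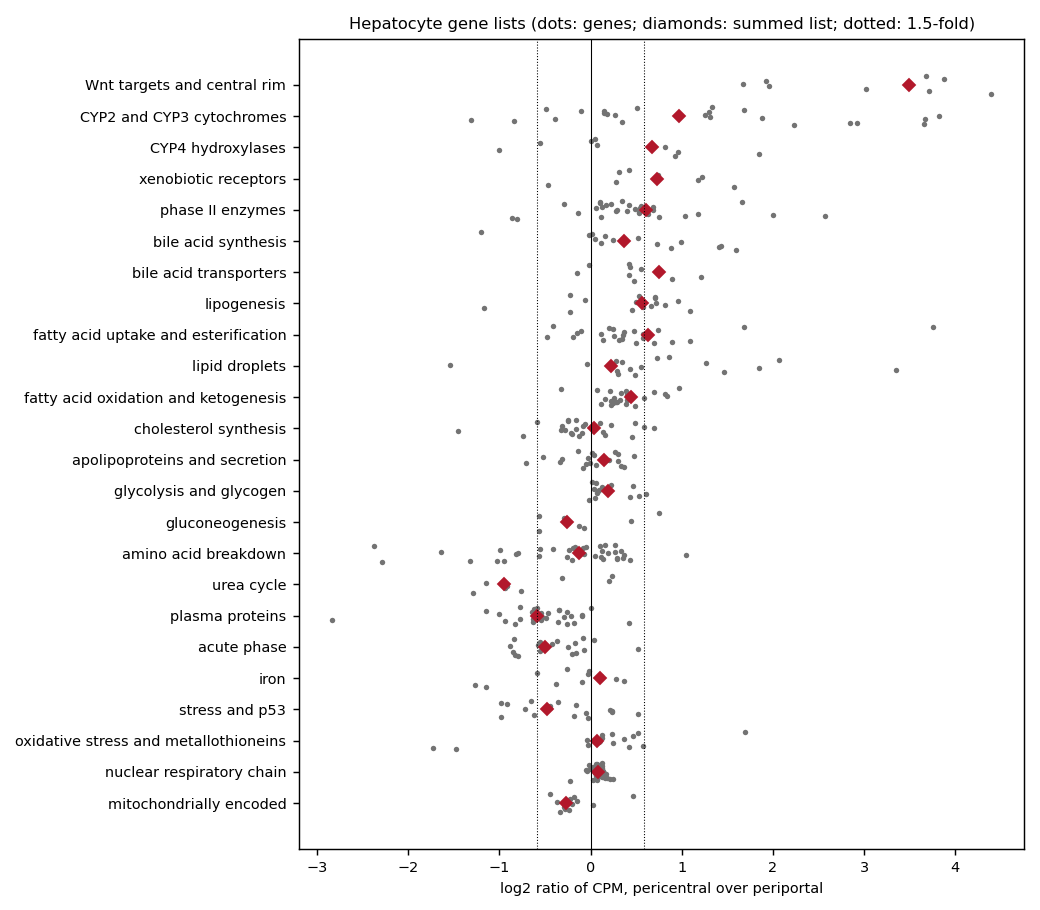
The log2 ratio of CPM between pericentral and periportal spots for each tested gene (dots) of 24 hepatocyte lists and for the summed list (diamonds), with dotted lines at 1.5-fold. Wnt targets and P450s extend to the right, the urea cycle and plasma proteins lie to the left, and the lists of respiratory chain genes stay between the dotted lines.

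Secreted plasma proteins had higher CPM in periportal spots and more UMIs per spot there, with log2 ratios of the summed list of -0.58 and -1.11. Of 31 members, 14 were past 1.5-fold there and 0 in pericentral spots, and together they had 162154, 138261, 126281, 117215 and 108294 CPM in bins 1 to 5. Alb had 76476, 59940.5, 52631, 47682 and 43182 CPM, a log2 ratio of -0.82, and in single spots its median was 76004 CPM in periportal and 43796 CPM in pericentral spots. Serpina1e, a protease inhibitor of the alpha-1-antitrypsin family, had the lowest ratio of the 15 genes named for the periportal zone, with 248, 114, 74.4, 49.7 and 34.8 CPM and a log2 ratio of -2.84 (95% interval -2.97 to -2.70). Its copies Serpina1a, Serpina1b, Serpina1c and Serpina1d had -0.63, -0.35, -0.94 and -0.54, and reads of these near-identical genes may be split between them. Serpina1e varied between periportal spots, from 0 to 1671 CPM with a median of 174. Hemopexin, Hpx, went from 7095 CPM in periportal spots to 3537 CPM in pericentral spots. Rbp4, the retinol carrier, lay on the other side with a log2 ratio of 0.42.

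Acute phase genes had 5 of 20 members past 1.5-fold in periportal spots and 0 in pericentral spots. These were Saa1 (655 and 378 CPM), Saa2 (304 and 172 CPM), Lcn2, lipocalin 2 (209 and 116 CPM), Itih3 (552 and 300.4 CPM) and Il1rn, the interleukin 1 receptor antagonist (13.7 and 7.64 CPM). Of the iron genes, the hepcidins Hamp and Hamp2 passed 1.5-fold, with 752, 735, 604, 483 and 339 CPM for Hamp, while the ferritin chains Fth1 and Ftl1 had log2 ratios of 0.28 and 0.11.

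Major urinary proteins, lipocalins that carry pheromones, were opposed within the family. Of 12 tested, 9 were past 1.5-fold in pericentral spots and 3 in periportal spots. The median member had a log2 ratio of 1.32, whereas the summed family had -0.97, since most of its UMIs were assigned to Mup20 (14627 and 6887 CPM) and Mup3 (5184 and 2879.6 CPM). Mup17 went from 14.2 CPM in periportal spots to 95.6 CPM in pericentral spots and Mup11 from 6.48 CPM in periportal spots to 37.5 CPM in pericentral spots. Gm13775, a non-coding transcript annotated among the Mup genes on chromosome 4 (GRCm38, 61783123 to 61801286), had 22.3, 56.9, 111, 195 and 267 CPM. The copies of this family are near-identical, so the split between members is uncertain.

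Among the other genes highest in pericentral spots, Gulo, the last enzyme of vitamin C synthesis, went from 77.5 CPM in periportal spots to 498 CPM in pericentral spots and Clstn3 from 6.79 CPM in periportal spots to 53.4 CPM in pericentral spots. Among those highest in periportal spots, Aldh1b1, a mitochondrial aldehyde dehydrogenase, had 225, 114, 67.5, 49.3 and 33.3 CPM in bins 1 to 5 and a log2 ratio of -2.76 (95% interval -2.90 to -2.62). Hsd17b6, a steroid dehydrogenase, had 189 and 39.5 CPM, Enho, which encodes the hormone adropin, 39.6 and 8.15 CPM, and Cyp17a1, an enzyme of androgen synthesis, 68.0 and 19.4 CPM. Slc3a1 and Slc22a7, transporters of cystine and of organic anions, had log2 ratios of -2.19 and -2.13, and the antimicrobial peptide Defb1 had -2.06. Mmd2, Cryl1, Tstd1 and Gsn had -2.30, -2.10, -1.86 and -1.73.

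Stress genes were higher in periportal spots where they differed. Of 18 tested, 6 were past 1.5-fold there and 0 in pericentral spots. They included the chaperone Hspa5 (976 and 593 CPM) and its partners Creld2 (119.7 and 63.6 CPM) and Sdf2l1 (46.9 and 23.7 CPM), as well as Atf3, Ddit3 and Nupr1. The p53 targets Cdkn1a, Mdm2, Ccng1 and Bax had log2 ratios of -0.06, 0.23, 0.24 and 0.21. The metallothioneins Mt1 and Mt2, which bind zinc, were periportal with 1061, 953, 736, 537 and 380.5 CPM for Mt1 and 165 and 49.9 CPM for Mt2. Blvrb, a biliverdin reductase, was pericentral with 107 and 344 CPM, and Hmox1 had a log2 ratio of 0.58. Genes of the respiratory chain did not pass 1.5-fold, with 0 of 37 nuclear and 0 of 12 mitochondrial members. Few of all 8131 genes tested passed it, 6.3% in pericentral and 3.26% in periportal spots. The mitochondrial transcripts together had 60064, 57492, 57097, 55235 and 49826 CPM in bins 1 to 5.

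Of 19 tested transcription factors of hepatocytes, 1 was past 1.5-fold in pericentral spots, 2 in periportal spots and 16 in neither. Over all genes tested, 6.3% passed it in pericentral and 3.26% in periportal spots. The pericentral factor was Ppara, the fatty acid receptor (8.71 and 19.8 CPM). The periportal ones included Hes1, a Notch target, with a log2 ratio of -0.78. Hnf4a, the master factor of hepatocytes, was level at 184 and 179.8 CPM, and Ctnnb1, which encodes β-catenin, at 138 and 134 CPM. The clock output genes Dbp and Hlf were 2 of 12 clock genes past 1.5-fold, both in pericentral spots, with log2 ratios of 0.76 and 0.70.

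Genes known from the middle of the lobule did not peak in the middle bin. Of 6 such genes, 5 were past 1.5-fold in periportal spots, including Ccnd1, cyclin D1, with 58.5, 52.4, 42.7, 32.9 and 25.3 CPM in bins 1 to 5, and Cyp8b1 was past it in pericentral spots. Across all genes tested, 140 were at least 1.2-fold higher in bin 3 than in either end bin. The genes named for this pattern were Gm42418, Mmp12, mt-Nd4l, Ly6d, Cxcl9, Lars2, Ccl6 and H2-DMa. Gm42418, an RNA that overlaps ribosomal RNA repeats, had 751, 1984, 2372, 1977 and 1479.8 CPM, and these values run opposite to the depth of the spots, which was lowest in bin 3. The zones were also redrawn by the same rule within spots of 15000 to 25000 UMIs, with 245 spots per zone. In this band the log2 ratio of Gm42418 between the zones was 0.25 instead of 0.98 and no longer past 1.5-fold. The peak in bin 3 was not tested at matched depth. Ly6d, a surface protein of epithelia, had 138, 179.5, 201, 176 and 139.5 CPM, the macrophage elastase Mmp12 had 18.3, 32.0, 28.0, 18.0 and 15.3 CPM, and the chemokine genes Cxcl9 and Ccl6 had 19.7, 30.1, 32.6, 28.5 and 22.9 CPM and 32.6, 53.7, 59.6, 44.6 and 44.0 CPM.

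Markers of vessels and ducts were used to check the zones from outside the score. The ligands of central vein endothelium were pericentral: Rspo3 was found in 153 pericentral and 46 periportal spots (22.0% and 6.63%), and Wnt2 in 156 and 48 spots (22.5% and 6.92%). After drawing down to 5000 UMIs, the shares were 5.62% and 1.59% for Rspo3 and 6.48% and 2.02% for Wnt2. Wnt9b had 21 UMIs in 17 pericentral spots and 0 UMIs in 694 periportal spots, which allows a share of up to 0.432% by 3 counts and up to 0.530% by the exact interval, and its CPM was at least 10.06-fold higher with 3 counts over the periportal zone as the floor. Of 7 tested bile duct markers, 5 were past 1.5-fold in periportal spots and 2, Cldn3 and Krt8, in neither zone. Cldn3, a tight junction protein, increased at each step, from 84.3 CPM in periportal spots to 105 CPM in pericentral spots. Epcam was found in 133 periportal spots (19.2%) and 12 pericentral spots (1.73%), and Sox9 in 157 (22.6%) and 25 (3.60%). After drawing down, Epcam was found in 4.18% and 0.720% of spots. Spp1, a secreted protein of duct cells and of macrophages, had 379, 176, 129.9, 88.7 and 62.6 CPM in bins 1 to 5, and single periportal spots ran from 0 to 7108 CPM. Of 4 tested members of portal endothelium, 0 passed 1.5-fold, beside 6.3% of all genes tested in pericentral and 3.26% in periportal spots. The list of portal endothelium had a log2 ratio of -0.27 (95% interval -0.37 to -0.16), or -0.16 with the score without Cyp2e1 and Cyp2f2. Of its arterial markers, Gja5 had 26 UMIs in periportal and 1 UMI in pericentral spots, whereas Vwf, a marker of larger vessels, had 11.9 and 17.8 CPM and was not past 1.5-fold.

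Smooth muscle of vessel walls had 4 of 6 tested members past 1.5-fold in periportal spots and 1, Tpm2, in pericentral spots. Acta2, smooth muscle actin, had 41.6, 51.6, 20.3, 14.4 and 7.28 CPM in bins 1 to 5, so that bin 2 was the highest. The summed list had a log2 ratio of -0.80, which was -0.28 without the 10% of spots richest in other cells and -1.43 within spots of 15000 to 25000 UMIs. The spots left out were ranked by marker lists that include smooth muscle, so that the change to -0.28 is partly built in. Stellate cell genes did not share a direction, with 4 of 19 past 1.5-fold in each zone and a log2 ratio of the summed list of 0.25 by CPM and -0.27 by UMIs per spot. Lrat, which stores retinol, Dcn, Rgs5 and Ecm1 were pericentral, with log2 ratios of 0.87, 0.74, 0.67 and 0.65. Adamtsl2, Des, Timp1 and Mmp2 were periportal, with -1.14, -1.08, -0.75 and -0.64. The collagens Col1a1 and Col3a1 had -0.27 and -0.12.

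Sinusoidal endothelium and Kupffer cells, the resident macrophages of the sinusoids, had a higher share of UMIs in pericentral spots but nearly equal UMIs per spot. Of 19 sinusoidal genes, 8 were past 1.5-fold in pericentral spots and 0 in periportal spots, and the list went from 522 CPM in periportal spots to 777 CPM in pericentral spots, but held 14.8 and 15.4 UMIs per spot. Stab2, a scavenger receptor, had 22.9 and 47.5 CPM, and after drawing down it was found in 10.1% of periportal and 21.9% of pericentral spots. Of 12 Kupffer genes, 5 were past 1.5-fold in pericentral spots and 0 in periportal spots. The list had 528, 776, 885, 819.7 and 787 CPM in bins 1 to 5, with 15.03 and 15.6 UMIs per spot in the end bins. Clec4f, a lectin of Kupffer cells, had 29.5, 45.4, 62.1, 62.0 and 58.5 CPM, Folr2 5.52 and 16.5 CPM and Cd5l 65.6 and 134 CPM. Within spots of 15000 to 25000 UMIs, the log2 ratio of the Kupffer list was 0.33 instead of 0.58 and that of the sinusoidal list 0.53 instead of 0.57. With spots drawn down to 5000 UMIs they were 0.55 and 0.46.

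Genes of lipid-associated macrophages had 3 of 14 members past 1.5-fold in periportal spots, namely Spp1, Itgax and Cd63, and 0 in pericentral spots. Trem2 and Gpnmb, which define these cells, were close to equal with 12.4 and 11.7 CPM and 17.5 and 15.4 CPM. Of 6 tested MHC class II genes, 0 passed 1.5-fold, beside 6.3% of all genes tested in pericentral and 3.26% in periportal spots. Cd74 had 321 and 288 CPM. No lymphocyte gene reached 200 UMIs, and the list had 17.3 and 16.7 CPM in the zones. The list of plasma cells had 27.4, 45.7, 38.0, 56.4 and 52.5 CPM in bins 1 to 5, and its direction turned when the 10% of spots richest in other cells were left out, with a log2 ratio of -0.01. These spots were ranked by marker lists that include plasma cells, so that this change is partly built in.

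Haemoglobin transcripts of red blood cells were low in the periportal zone and level elsewhere. The 5 genes of the list had 644, 1489.5, 1462, 1540.4 and 1455 CPM in bins 1 to 5, and 4 of the 5 were past 1.5-fold in pericentral spots, while Alas2, the erythroid enzyme of haem synthesis, had 46.7 and 46.2 CPM. With the zones redrawn among the 1224 spots of 15000 to 25000 UMIs, 245 spots per zone, their median depth was similar (20620 UMIs in periportal and 19416 in pericentral spots). The log2 ratio of the list was 0.13 between these smaller zones and 1.18 as reported.

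**Figure D4:**
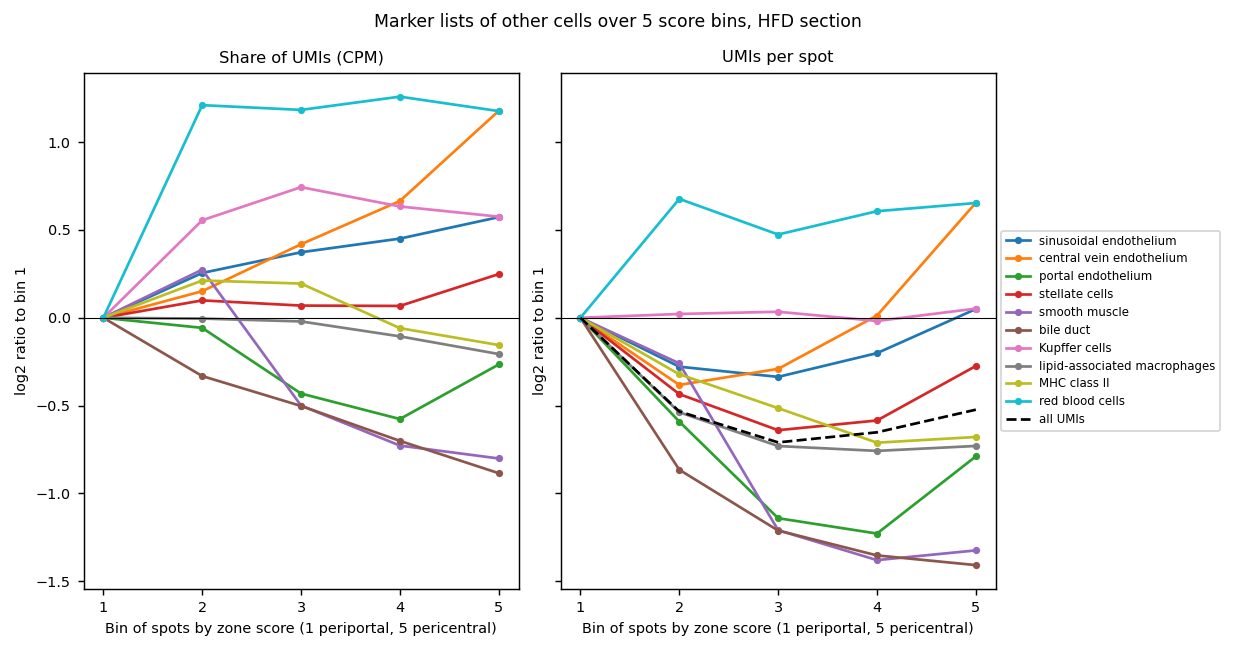
Summed marker lists of 10 other cell classes over the 5 score bins as log2 ratio to bin 1, on the left in CPM and on the right in UMIs per spot, where the dashed line shows all UMIs. Kupffer and sinusoidal lists lie above 0 in CPM and near 0 in UMIs per spot at bin 5, bile duct and smooth muscle lists end below 0 on both scales, and red blood cells step up between bins 1 and 2.

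In the NCD section, the same rule gave 339 spots per zone out of 1695 spots with at least 5000 UMIs, which were 45.9% of its 3692 spots over tissue. Its values are given beside those of the HFD section with no test of the difference, since each diet has 1 section. The list of Wnt targets and rim genes had a log2 ratio of 3.49 in the HFD and 3.23 in the NCD section, CYP2 and CYP3 cytochromes 0.97 and 1.34, and the urea cycle -0.95 and -0.74. Lipogenic genes had a log2 ratio of 0.56 (95% interval 0.55 to 0.57) here and of -0.51 (-0.53 to -0.49) with the NCD diet. Scd1, which supplied most UMIs of this list, had 4661 CPM in periportal and 6920.4 CPM in pericentral spots of the HFD section, and 6182 and 4047 CPM in those of the NCD section. Genes of fatty acid uptake had 0.63 and 0.11, and acute phase genes -0.50 and -0.17. Cidea, with a steep gradient in the HFD section, had 2 UMIs over both zones of the NCD section, and Cidec had 3.33 CPM in periportal and 5.32 CPM in pericentral spots there. Hsd17b13 was periportal in both sections, with log2 ratios of -1.54 and -2.65.

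**Figure D5:**
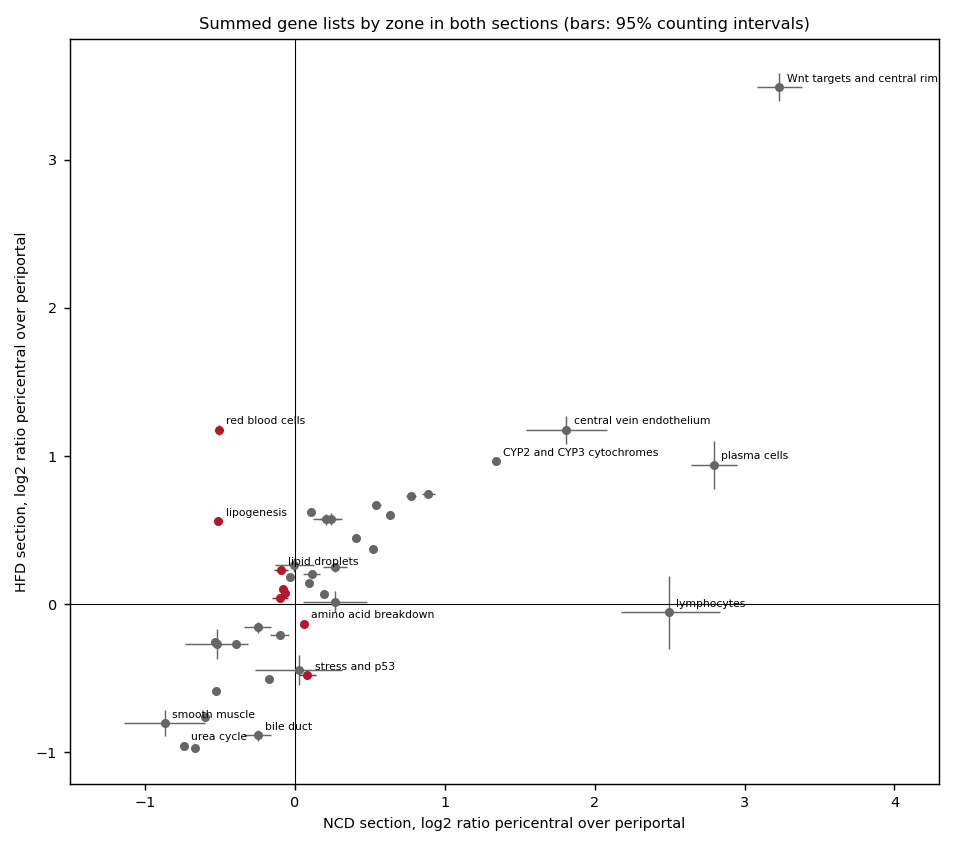
Log2 ratio of each summed list between pericentral and periportal spots in the NCD section (x) and the HFD section (y), with 95% counting intervals; red points have opposite signs in the sections with both intervals clear of 0. Lipogenesis and red blood cells lie furthest into the upper left, and Wnt targets lie at the upper right in both sections.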

How the data were processed

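Raw UMI counts per gene and spot of 1 HFD and 1 NCD liver section were used as the authors deposited them, made with Space Ranger 1.3.1 per the file headers on mm10 per the labels, with no normalization. Members and gene lists were chosen with earlier results of these data known, and some list members are counted but not reported here by name. Counts were pooled over the spots of a zone and divided by all their UMIs (CPM). Ratios have exact conditional binomial intervals, and shares of spots exact Clopper-Pearson intervals, at the 95% level. They cover counting error only. With 1 section per diet no test was made, and a call means past 1.5-fold with at least 200 UMIs over both zones. Genes named are the 8 score genes, the members of 42 lists, 15 genes per direction, those most extreme in ratio that kept their order over 5 bins, and the 8 with the highest ratio of bin 3 to either end, each with at least 500 UMIs. For shares, spots were drawn down to 5000 UMIs with seed 1.

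The HFD section held 72118803 UMIs (median 18549 per spot over tissue) and the NCD section 29037988 (median 4187.5). Barcodes over tissue in both sections numbered 3173, as the slides share 1 barcode set. The tables hold 32285 features, of which 32235 are in GENCODE M21 on GRCm38. The tables of all spots and of spots over tissue differed in 0 UMIs. No doublet caller was run, and images and spot positions were not used here. Calculations used scipy 1.17.1 and numpy 2.4.6 under Python 3.11.15, tables pandas 2.3.3 and plots matplotlib 3.10.9, and the method was tested on simulated data. Alternatives changed the zone size, the spot and gene minimum, the depth, the score, the total, the weighting of spots and the fold. UMIs per spot, the band of 15000 to 25000 UMIs and the subtraction of off-tissue spots were chosen after seeing the data.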

Additional observations from a re-analysis of the deposited data

Results flagged for a closer look

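Each value below is a log2 ratio of pericentral to periportal CPM whose sign was opposite in the HFD and the NCD section, with both counting intervals clear of 0. The difference between the sections was not tested, since each diet has 1 section. Lists were lipogenesis (0.56 in HFD, -0.51 in NCD), red blood cells (1.18 and -0.51), stress and p53 genes (-0.48 and 0.08), lipid droplets (0.23 and -0.09), amino acid breakdown (-0.13 and 0.06), iron (0.11 and -0.08), the nuclear respiratory chain (0.078 and -0.062) and cholesterol synthesis (0.043 and -0.10). By UMIs per spot, 4 of these HFD signs turned, with -0.29 for lipid droplets, -0.42 for iron, -0.45 for the nuclear respiratory chain and -0.48 for cholesterol synthesis. The NCD zones held 4509836 UMIs in periportal and 4890009 in pericentral spots, 339 spots each, so this scale would raise the NCD ratios. For these 4 lists the NCD sign would turn as well, to slightly positive, so that the sections would still have opposite signs. The NCD intervals were not recomputed on this scale. With a total that left out mitochondrial and the 20 most abundant genes, the nuclear respiratory chain was -0.0023 and cholesterol synthesis -0.037. In the HFD section the median tested member went against the summed list for iron (-0.062) and for cholesterol synthesis (-0.145). Genes past 1.5-fold in opposite zones of the sections were Hbb-bt, a haemoglobin chain (1.46 and -0.66), Igfbp1, a binding protein of insulin-like growth factors (-0.62 and 0.98), and Saa2, an acute phase protein (-0.82 and 0.87). In the HFD section Igfbp1 had 187 CPM in periportal and 122 CPM in pericentral spots, and in the NCD section 86.0 and 169 CPM. Saa2 had 304 and 172 CPM in the HFD section and 28.8 and 52.6 CPM in the NCD section.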

How the results depend on the processing

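No paired analysis was possible because each diet has 1 section, and no replicate could be left out. As reported, 512 genes were higher and 265 lower in pericentral spots. These counts were 274 and 118 with spots drawn down to 5000 UMIs, 863 and 647 with a gene minimum of 50 UMIs, 213 and 118 with a minimum of 1000 UMIs, and 157 and 110 with a 2-fold call. They were 139 and 1689 by UMIs per spot and 313 and 148 in spots of 15000 to 25000 UMIs. Drawing down, the band and the higher minimum test fewer genes (3329, 4286 and 3203 instead of 8131). The share of pericentral calls was 65.9% as reported, 54.1% with a total that left out mitochondrial and the 20 most abundant genes, and 7.60% by UMIs per spot.

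The log2 ratio of Wnt targets and rim genes (3.49) and that of the urea cycle (-0.95) kept their direction and stayed past 1.5-fold in 15 alternatives. They were 4.27 and -1.20 with the top and bottom 10% of spots, 2.88 and -0.76 with 33%, 3.62 and -0.98 with at least 10000 UMIs, and 3.34 and -0.92 with spots drawn down. They were 3.61 and -1.01 with a score without Cyp2e1 and Cyp2f2, 3.35 and -0.87 with these genes alone, 3.35 and -0.92 with every spot weighted equally, and 2.97 and -1.48 by UMIs per spot. In the band of 15000 to 25000 UMIs they were 3.26 and -1.03, and with off-tissue spots subtracted 3.83 and -1.0. The urea cycle was -1.03 with the total without abundant genes and -0.99 without the 10% of spots richest in other cells. Plasma cells, past 1.5-fold as reported (0.94), turned to -0.012 without the 10% of spots richest in other cells and to -1.16 in the band. The spots richest in other cells were ranked by lists that include plasma cells, so that the turn to -0.012 is partly built in. The causes of the changes between settings were not tested.

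Of the 31 named genes past 1.5-fold, 31 kept their sign and 30 stayed past 1.5-fold in 15 alternatives, all but Gm42418. These 30 genes were picked for the most extreme ratios in the same spots, so that this outcome was largely fixed by their selection. Of 15 lists past 1.5-fold, 14 kept their sign and 6 stayed past 1.5-fold. Of pericentral and periportal spots as reported, 84.7% and 91.9% were shared with a score from a random split of the UMIs. The shares were 76.8% and 78.7% with the score without Cyp2e1 and Cyp2f2, and 81.8% and 93.2% with these genes alone. With each of these scores 0 spots changed sides. All of them were made from genes and UMIs that also made the reported score. High shares and the lack of changed sides were thus largely built in, and are no independent check of the zones. Spots below 5000 UMIs had no zone, and genes below 200 UMIs were not called.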
